A study of Homo sapiens and Mus musculus with 21 samples.

Results

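Long noncoding RNA (lncRNA) genes held 1638 of the 87644 distinct autosomal m6A positions that the miCLIP lists of HEK293T cells gave over 3 libraries. The positions lay in 565 genes. A position was counted where it fell within the span of exactly 1 gene of the RefSeq table of GRCh38.p14, on either strand, and that gene was annotated as noncoding RNA, neither protein-coding nor pseudogene. HEK293T is a transformed human embryonic kidney line. The groups were 2 libraries of PCIF1 knockout cells (KO replicates 1 and 2) and 1 library of wild-type cells (WT). All 3 came from polyadenylated RNA and the same anti-m6A antibody. The labels do not say whether the KO libraries came from separate clones or cultures, and with 1 WT library the genotypes were not tested against each other. The series as a whole addressed PCIF1 and m6Am, with MEF miCLIP, ribosome profiling, input RNA and SLAM-seq libraries besides these.

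The modified base m6A is adenosine methylated at N6. Within messenger and noncoding RNA it is written by the METTL3-METTL14 complex at adenosines in the DRACH motif, where D is A, G or U, R is A or G, and H is A, C or U, and YTH-domain proteins bind it. PCIF1 acts elsewhere: it methylates the adenosine next to the cap when that base is 2′-O-methylated, which gives m6Am. In miCLIP an antibody is crosslinked to the RNA, and the crosslink leaves substitutions in the reads next to the methylated base. Long noncoding RNAs are transcripts with no long open reading frame. Many are spliced and polyadenylated, some stay in the nucleus (NEAT1, MALAT1), and others work in the cytoplasm (NORAD). MALAT1 and other lncRNAs are known m6A carriers.

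For each site the deposited lists give the reads that cover it (k), the reads that carry the substitution (m), and the 5-base motif. In 1088 of 1088 pairs of a site and a promoter window that could be read, the listed base was the C of the motif, so the adenosine lies 1 base upstream of each position given here. Most noncoding positions fell outside the sequences at hand, and 52 lay within a window of 250 bases before to 50 after a gene's start. The 3 of these that stood in all 3 lists are printed first, and HK2-DT, which stood in 2 lists and lies just inside its own start, follows. The sequences are RefSeq's, from GRCh38.p14, read 5′ to 3′ on the strand of the site, with the motif in capitals.
LOC284600, chr1:919681-919721, minus strand: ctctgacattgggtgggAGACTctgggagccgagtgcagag
LOC284600, chr1:919695-919735, minus strand: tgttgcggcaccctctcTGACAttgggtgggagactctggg
LOC284600, chr1:919818-919858, minus strand: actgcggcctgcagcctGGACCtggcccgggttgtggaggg
HK2-DT, chr2:74833954-74833994, minus strand: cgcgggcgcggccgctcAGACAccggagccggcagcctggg

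The first 3 windows show a limit of placing sites by gene span. LOC284600 is annotated on the plus strand, and these sites are on the minus strand, at 9, 23 and 146 nt before the annotated start of LINC02593, a lncRNA gene on that strand. At the 23-nt position the substituted share of reads was 9 of 93 in KO replicate 1, 10 of 92 in KO replicate 2 and 8 of 72 in WT. At the 9-nt position it was 5 of 123, 7 of 131 and 6 of 95 in the same order of libraries. The HK2-DT position had 4 of 20 substituted reads in KO replicate 1 and 5 of 16 in WT, and KO replicate 2 did not list it. HK2-DT is the divergent transcript of HK2, the gene of hexokinase 2.

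The lists held 654 noncoding sites in KO replicate 1, 647 in KO replicate 2 and 744 in WT. As shares of all autosomal sites these were 1.66% (exact 95% interval 1.54 to 1.80%) of 39290, 1.41% (1.30 to 1.52%) of 45968 and 1.77% (1.64 to 1.90%) of 42075. The difference between the KO libraries, whose intervals do not overlap, was larger than that between KO replicate 1 and WT, and the gap between KO replicate 2 and WT was the largest. These intervals, like all others given here, cover counting error only and not the spread between libraries. Among reads, PCR copies of 1 molecule may also have been counted more than once, which was not checked. By biotype, 653, 647 and 742 of the sites lay in lncRNA genes, and the other 1, 0 and 2 lay in antisense RNA genes. The name long noncoding RNA thus fits the annotation of the genes. No site was placed in a structural RNA gene (small nuclear, small nucleolar, ribosomal and the like). However, the RNA was polyadenylated, and a site in a structural RNA gene that lies within another gene was not placed. The absence therefore says little about methylation of structural RNAs.

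The sites were spread thinly over many genes. KO replicate 1 had sites in 330 genes, KO replicate 2 in 305 and WT in 350, and 201, 174 and 208 of these genes had a single site. The median was 1 site per gene in every library, against 3 for genes that code for protein. Over the 3 lists 145 genes had a site in all lists, 130 in 2 and 290 in 1. At the other end, 46 genes had 10 or more listings (a listing is 1 site in 1 list), and the 20 genes with the most held 475 of 2045 listings (23.2%) and 56 of the 92 positions that all 3 lists shared. The plot of sites per gene shows these 20.

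**Figure D1:**
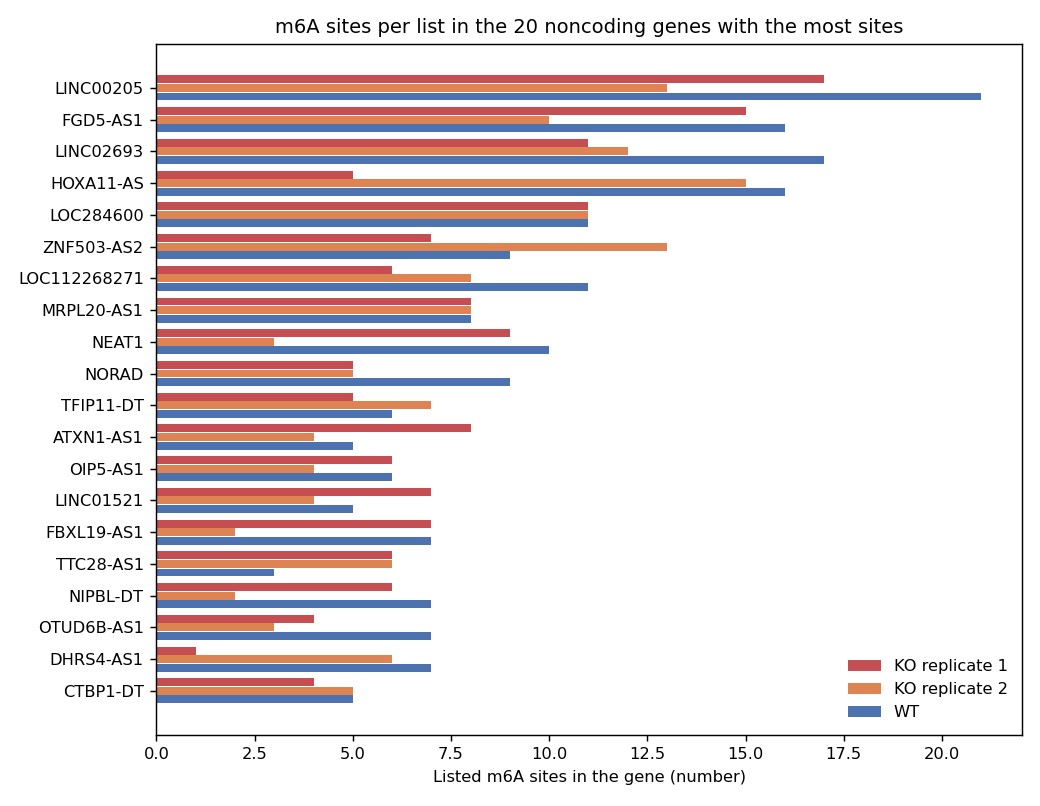
Number of listed m6A sites (x axis) in each of the 20 noncoding genes with the most sites over the 3 lists (y axis), with 1 bar each for KO replicate 1, KO replicate 2 and WT. LINC00205 leads with 17, 13 and 21 sites, and in HOXA11-AS and NEAT1 the bar of 1 KO library is far shorter than the bars of the other KO library and of WT.

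LINC00205, an intergenic lncRNA gene at chr21:45288052-45297354, had the most sites: 17 in KO replicate 1, 13 in KO replicate 2 and 21 in WT. They made up 35 positions over 7851 nt, all on the gene's strand, and 2 of the positions were in all 3 lists. The summed substituted share was 76 of 853 reads (8.91%) in KO replicate 1, 54 of 494 (10.9%) in KO replicate 2 and 72 of 788 (9.14%) in WT. Each sum runs over the sites of its own list. LINC00205 thus had many positions, and 21 of the 35 were in 1 list.

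FGD5-AS1, a lncRNA gene antisense to FGD5 at chr3:14942779-14948441, came next with 15, 10 and 16 sites in KO replicates 1 and 2 and WT. Its 22 positions spanned 3081 nt, and 6 of them were shared by all lists. It carried the most substituted reads of any gene, 107 of 2603 (4.11%) in KO replicate 1, 103 of 2410 (4.27%) in KO replicate 2 and 144 of 3261 (4.42%) in WT. The shares of the 3 libraries were thus close together, but each was summed over the sites of its own list. They do not compare the same positions.

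NORAD, a cytoplasmic lncRNA known to bind Pumilio proteins, had 5 sites in KO replicate 1, 5 in KO replicate 2 and 9 in WT, at chr20:36045618-36050960. It had 9 positions, 5 of them in all 3 lists, so every NORAD site of the KO lists was also in the WT list. The other 4 positions were in the WT list alone. OIP5-AS1, the human counterpart of the zebrafish lncRNA cyrano, had 6, 4 and 6 sites in KO replicates 1 and 2 and WT and 8 positions, of which 4 were in all lists. Those 2 genes were the members of the cytoplasmic list of 8 reference genes that had a site, and 9 of their 17 positions were shared by all 3 lists.

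NEAT1, the architectural RNA of nuclear paraspeckles, had 9 sites in KO replicate 1, 3 in KO replicate 2 and 10 in WT. Its 15 positions lay on the plus strand between 65423347 and 65426292 of chromosome 11, within 2946 nt at the low-coordinate end of a gene of 22743 nt. NEAT1 is known to be made as a short polyadenylated form and a longer one. KO replicate 2 covered its listed NEAT1 sites with 125 reads in all, against 833 in KO replicate 1 and 606 in WT. The part of this read difference in the site numbers was not tested. HOTAIR with 2, 3 and 3 sites, GABPB1-AS1 with 3, 2 and 1, and LINC-PINT with 0, 1 and 0 were the other genes of the nuclear and imprinted list of 10 with a placed site in KO replicates 1 and 2 and WT. They are named because they complete the members of that list with a placed site, a choice made after their values were seen. MALAT1 is on the list too, but its span overlaps another gene, so its sites were not placed. They are described further on.

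The KO libraries differed from each other in other genes too. HOXA11-AS, antisense to the homeobox gene HOXA11, had 5 sites in KO replicate 1, 15 in KO replicate 2 and 16 in WT. DHRS4-AS1 had 1, 6 and 7 in the same libraries, FBXL19-AS1 had 7, 2 and 7, and NIPBL-DT had 6, 2 and 7. ZNF503-AS2 had 7, 13 and 9, with the WT value between the KO values. In LOC284600 (11, 11 and 11) and MRPL20-AS1 (8, 8 and 8) the numbers were the same in every list. However, 7 of the 22 LOC284600 positions were on the strand opposite to the gene, and these included all 5 that every list shared.

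LINC02693 had 11, 12 and 17 sites in KO replicates 1 and 2 and WT, with 6 of 22 positions in all lists, and LOC112268271 had 6, 8 and 11. TFIP11-DT, the divergent transcript of the splicing factor gene TFIP11, had 5, 7 and 6. LINC01547, with 3, 8 and 3, tied with CTBP1-DT on listings and substituted reads, and the alphabet put it outside the 20. ATXN1-AS1 had 8, 4 and 5, LINC01521 had 7, 4 and 5, TTC28-AS1 had 6, 6 and 3, OTUD6B-AS1 had 4, 3 and 7, and CTBP1-DT had 4, 5 and 5. None of the 13 LINC01521 positions was in all 3 lists. WT had more sites than both KO libraries in 10 of the 20 genes and fewer than both in 1. Over all genes it had more in 177 and fewer in 69, and the WT list was the longest of the 3 for noncoding sites. The counts over all genes are not mirror images. A gene listed in WT alone counts as more, but a gene listed in 1 KO library alone cannot count as fewer than both. Of the 565 genes 290 were in 1 list. The 20 genes each had a site in every list, so this does not touch their counts. With 1 WT library, a direction between the genotypes was not tested.

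In the reference as a whole 565 of 21492 autosomal noncoding genes (2.63%) had a site. Grouped by the form of their names, 156 of 2007 antisense genes (7.77%) had one, as did 114 of 580 divergent transcripts (19.7%) and 76 of 2264 intergenic LINC genes (3.36%). Of 12845 uncharacterised LOC genes 140 (1.09%) had one, and none of 106 overlapping or intronic transcripts did. Sites within several genes were left out, which can lower these shares where genes overlap others. The overlapping and intronic transcripts do so by name, so their lack of sites says little about methylation. The antisense genes held 212, 232 and 265 sites in KO replicates 1 and 2 and WT, and 46 of the 92 shared positions. The divergent genes held 101, 114 and 141 sites, and the intergenic ones 107, 110 and 110. The substituted share summed over antisense sites was 9.38%, 9.55% and 9.61% in the 3 libraries. In divergent transcripts it was 13.2%, 15.9% and 15.8%. The groups were not matched for read number, with which the substituted share falls, as shown further on.

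Host genes of small RNAs form another group, since snoRNAs and microRNAs are cut from their introns or exons. Of 34 snoRNA host genes 18 (52.9%) had a site, against the 2.63% of all noncoding genes, with 21, 16 and 18 sites in KO replicates 1 and 2 and WT. SNHG16 led them with 3, 3 and 6. Of 72 microRNA host genes 13 (18.1%) had a site, and MIR924HG led them with 7, 1 and 5 in the same libraries. Each of those groups had 1 position in all 3 lists, out of 45 in the snoRNA hosts and 42 in the microRNA hosts. The snoRNA hosts' substituted share was 6.00%, 7.39% and 8.22%, against 17.8%, 13.2% and 18.7% in the microRNA hosts. These shares were not matched for read number, and the share falls as reads rise, so they do not compare methylation between the groups. The host genes were also not matched to all noncoding genes for RNA level. Its part in the 52.9% against 2.63% of genes with a site was not tested.

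The 10 sites with the most substituted reads summed over the lists were each in all 3 lists, and summing favours such positions. Other sites had many substituted reads in 1 list alone. The NORAD position chr20:36050851-36050851 had 14 of 64 (21.9%) in WT only. A position in LOC105376156 had 13 of 28 (46.4%) in KO replicate 1 only. Both were picked out after their values were seen. The strongest of the 10 lay in FGD5-AS1 at chr3:14945418-14945418 on the minus strand, with the motif TGACT, 53.4% of the way along the gene. It had 31 of 216 substituted reads (14.4%, interval 9.96 to 19.7%) in KO replicate 1, 39 of 272 (14.3%, 10.4 to 19.1%) in KO replicate 2 and 46 of 293 (15.7%, 11.7 to 20.4%) in WT. The shares differed by less than their intervals. Its 5 shared neighbours in the gene had 1.64 to 5.26% with a similar number of reads, so this position stood above them in every library.

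The site in COX10-DT, the divergent transcript of COX10, a gene needed to make haem A, was at chr17:14034182-14034182 with the motif AGACA. It had 13 of 60 substituted reads (21.7%) in KO replicate 1, 19 of 50 (38%) in KO replicate 2 and 25 of 62 (40.3%) in WT. The LINC02987 site at chr19:27797939-27797939, with GGACA, had 9 of 42 (21.4%), 16 of 41 (39.0%) and 10 of 48 (20.8%) in the same libraries. At the first site KO replicate 1 was the low library, and at the second KO replicate 2 was the high one. The KO libraries thus differed from each other at both by about as much as any KO library differed from WT.

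The LINC02693 site at chr17:21533904-21533904, with GGACT, gave the widest spread of shares in relation to its level. It had 4 of 59 (6.78%, interval 1.88 to 16.5%) in KO replicate 1, 12 of 101 (11.9%, 6.29 to 19.8%) in KO replicate 2 and 18 of 71 (25.4%, 15.8 to 37.1%) in WT. WT was above both KO values, and its interval overlapped both. Another shared position of the gene, at chr17:21534243-21534243, ran the other way, with 6 of 35, 13 of 61 and 3 of 48 substituted reads.

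CRNDE, a lncRNA first described in colorectal neoplasia, had its site at chr16:54919092-54919092 on the minus strand, 229 nt before the gene's end. It had 16 of 132 (12.1%) substituted reads in KO replicate 1, 9 of 88 (10.2%) in KO replicate 2 and 10 of 61 (16.4%) in WT. CHASERR, a lncRNA next to the chromatin remodeller gene CHD2, had its site at chr15:92897916-92897916, with 10 of 184 (5.43%), 10 of 122 (8.20%) and 12 of 105 (11.4%). The NORAD site at chr20:36050721-36050721 had 9 of 200 (4.50%), 13 of 247 (5.26%) and 8 of 269 (2.97%). The ZNF503-AS2 site at chr10:75408086-75408086 had 9 of 140 (6.43%), 13 of 138 (9.42%) and 8 of 100 (8%). The other FGD5-AS1 sites among the 10, at 14945702 and 14945903, had 2.55%, 4.91% and 3.53%, and 5.26%, 3.23% and 3.72%. At all 10 sites the WT interval overlapped those of both KO libraries, as the plot of substituted shares shows.

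**Figure D2:**
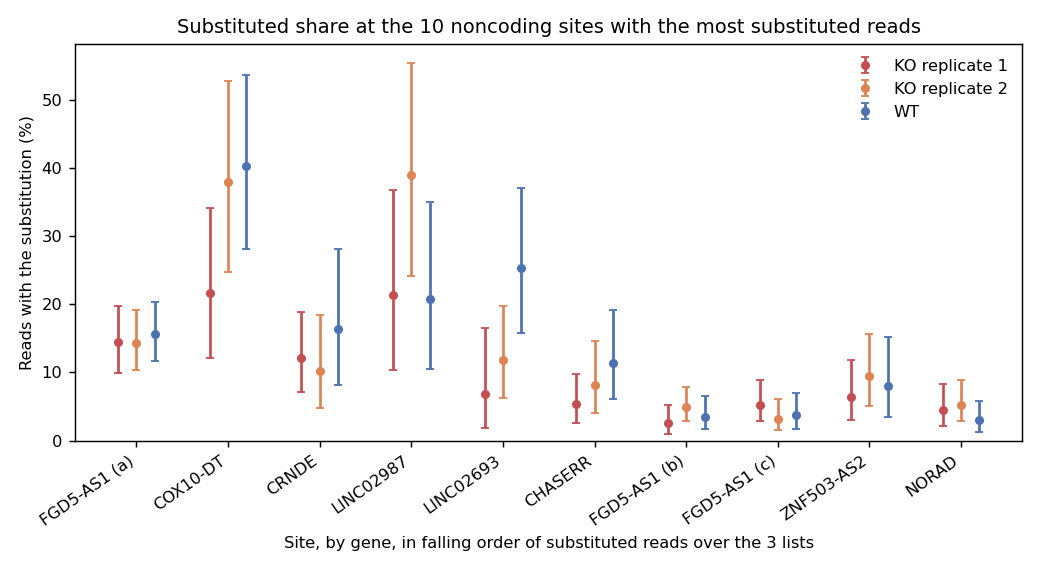
Substituted reads as a percentage of the reads at each of the 10 noncoding sites with the most substituted reads over the 3 lists, in falling order (x axis), for KO replicate 1, KO replicate 2 and WT. Points are m over k and bars are exact 95% intervals; FGD5-AS1 (a), (b) and (c) are its positions 14945418, 14945702 and 14945903, and the bars of the 3 libraries overlap at every site.

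Agreement among the lists was low. Of the 1638 positions 1323 (80.8%) were in 1 list, 223 in 2 and 92 (5.62%) in all 3, and the 92 lay in 53 genes. For 72450 positions in protein-coding genes, 66.4% were in 1 list and 13.3% in all 3. The positions in 1 list were 411 in KO replicate 1, 412 in KO replicate 2 and 500 in WT. Those in 2 lists were 71 in both KO libraries, 80 in KO replicate 1 and WT, and 72 in KO replicate 2 and WT. The KO libraries therefore shared no more positions with each other than either shared with WT.

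The same holds as shares of a list. KO replicate 2 held 24.9% (21.7 to 28.4%) of the noncoding sites of KO replicate 1, and WT held 26.3% (23.0 to 29.9%) of them. KO replicate 1 held 25.2% and WT 25.3% of the sites of KO replicate 2. Of the WT sites KO replicate 1 held 23.1% and KO replicate 2 held 22.0%. By gene instead of position, the shares were 56.4% for KO replicate 1 in KO replicate 2, 61.0% for the reverse, 57.0% and 62.6% for KO replicates 1 and 2 in WT, and 53.7% and 54.6% for WT in KO replicates 1 and 2.

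Agreement moved with read number. Of KO replicate 1 sites with under 10 reads, KO replicate 2 held 4.39% (9 of 205), and with 100 or more reads 62.2% (23 of 37, interval 44.8 to 77.5%). By substituted reads, it held 10.4% of sites with 2 and 75% (9 of 12) of those with 10 or more. Positions in 1 list had a median of 10 reads in each library, and those in all 3 had 50.5, 53 and 48 in KO replicates 1 and 2 and WT. A position missing from a list may be unmethylated there or too thinly covered to be listed, and the lists cannot tell these apart.

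Read number also separated noncoding from coding sites. The median number of reads at a noncoding site was 15 in KO replicate 1, 15 in KO replicate 2 and 13 in WT, against 39, 45 and 32 at coding sites. In all 3 libraries it was lower (two-sided exact sign-flip permutation test, p = 0.25, the smallest that 3 libraries allow). Coding sites were therefore also weighted to the noncoding read classes. Of the KO replicate 1 sites, KO replicate 2 held 24.9% of the noncoding ones, against 28.5% of the coding ones as weighted and 45.2% unweighted. KO replicate 1 held 25.2% of the noncoding sites of KO replicate 2, against 21.8% of the weighted coding sites. WT held 26.3% and 25.3% of the noncoding sites of KO replicates 1 and 2, against 26.3% and 23.0% of the weighted coding ones. Of the noncoding WT sites KO replicates 1 and 2 held 23.1% and 22.0%, against 23.3% and 26.5% of the weighted coding ones. Weighted in this way, the noncoding share was the lower one in 3 of the 6 directions, the higher in 2 and equal at this precision in 1. Weighted to the classes of substituted reads instead, the coding shares were 32.7% for KO replicate 1 in KO replicate 2, 26.8% for the reverse, 29.7% and 28.2% for KO replicates 1 and 2 in WT, and 27.2% and 31.3% for WT in KO replicates 1 and 2. The noncoding share was below these in all 6 directions, so the comparison depends on which read number is matched. The plot of agreement by read number gives the classes.

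**Figure D3:**
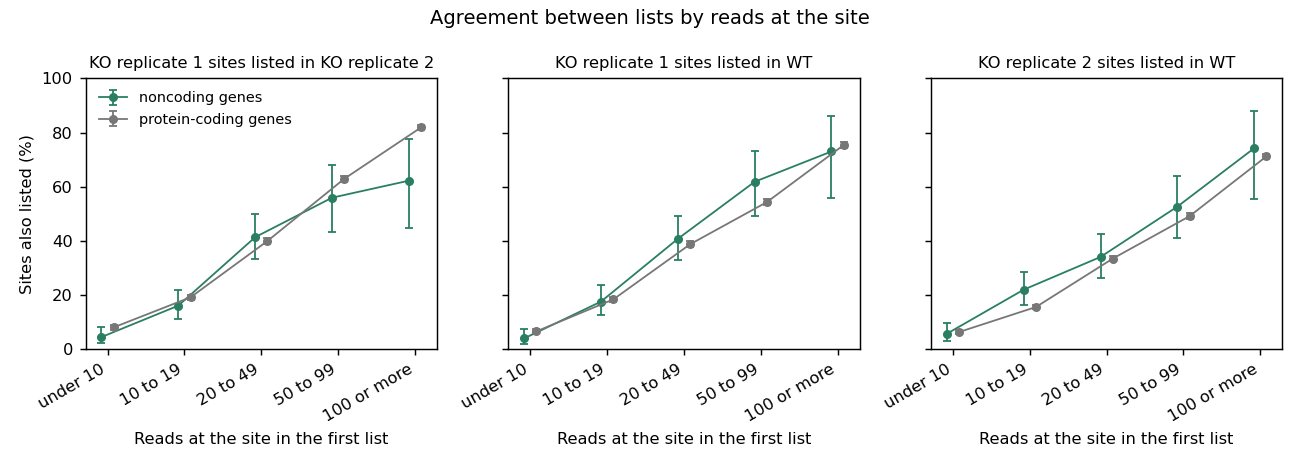
Share of the sites of 1 list that another list also held (y axis, percent) by the number of reads at the site in the first list (x axis), for noncoding and protein-coding genes, with exact 95% intervals. The share climbs with reads in both kinds of gene, with noncoding sites at 4.39% under 10 reads and 62.2% at 100 or more for KO replicate 1 in KO replicate 2.

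The substituted share followed read number too. Its median at noncoding sites was 17.6%, 18.2% and 18.2% in KO replicates 1 and 2 and WT, against 10.5%, 9.68% and 10.2% at coding sites (higher in 3 of 3 libraries, exact sign-flip p = 0.25). The lowest number of substituted reads in the lists is 2, so a thinly covered site can be listed only with a high share. Within read classes the gap depended on the class. Under 10 reads the noncoding medians were 40%, 37.5% and 33.3% in KO replicates 1 and 2 and WT, against 33.3% at coding sites in every library. At 10 to 19 reads the noncoding medians were 17.6%, 18.2% and 17.6%, against 16.7% at coding sites in every library. At 20 to 49 reads the noncoding medians were 11.7%, 11.9% and 10%, against 11.1%, 10.3% and 10% at coding sites. At 50 to 99 reads the noncoding medians were 6.78%, 7.14% and 7.22%, against 6.25%, 6.28% and 6.25%. At 100 or more reads they were 3.70%, 4.42% and 3.54%, against 4.44%, 4.21% and 4.35%. Sites with exactly 2 substituted reads made up 47.1%, 46.4% and 56.3% of the noncoding lists, against 26.9%, 25.8% and 33.0% of the coding ones (p = 0.25). Those with 10 or more were 12, 17 and 16 noncoding sites, 1.83%, 2.63% and 2.15%, against 8.07%, 10.6% and 7.58% of coding sites.

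The motif differed little. The core GGAC stood at 33.8%, 32.8% and 33.6% of noncoding sites in KO replicates 1 and 2 and WT, against 34.7%, 34.6% and 34.3% of coding sites. The noncoding share minus the coding one was -0.891, -1.83 and -0.748 percentage points, lower in 3 of 3 libraries (exact sign-flip p = 0.25).

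The 92 shared positions are the ones with a value in each library. Summed over them, 500 of 6589 reads (7.59%, interval 6.96 to 8.25%) were substituted in KO replicate 1, 590 of 6959 (8.48%, 7.83 to 9.16%) in KO replicate 2 and 563 of 6343 (8.88%, 8.19 to 9.60%) in WT. The largest gap was between KO replicate 1 and WT. The gap between KO replicate 2 and WT was the smallest. With genes placed by strand the shares were 7.37%, 7.58% and 7.90% in KO replicates 1 and 2 and WT. The smallest gap was then between the KO libraries. Those shares rest on 95 positions that are in part others. Genes without a known strand drop out, and sites that only an opposite-strand gene overlaps come in. WT was above both KO values at 37 positions, below both at 22 and between or equal at 33. The median difference at a position was 3.83 percentage points between the KO libraries, 2.77 between KO replicate 1 and WT, and 3.12 between KO replicate 2 and WT. Across the positions, which share libraries and read numbers, Spearman's rho of the share was 0.72 between the KO libraries and 0.70 and 0.71 between KO replicates 1 and 2 and WT.

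On the genes' own axis noncoding sites were spread more evenly than coding ones, for which a pile-up near the stop codon and in the last exon is well known. The strand was known for 444 of the 565 genes, and 1200 positions lay on their gene's strand. Of these, 28.6%, 19.8%, 20.2% and 31.5% fell in the first to the last of 4 equal parts of the gene span, against 11.9%, 10.9%, 16.4% and 60.8% of 59629 coding positions. The median position was 51.8% of the way along a noncoding span and 84.8% along a coding one. Spans include introns, and exons were not used here, so these are places in the gene and not in the mature transcript. In the last 1000 nt lay 26.6% of noncoding and 18.5% of coding positions, with spans of different length behind the 2 values.

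**Figure D4:**
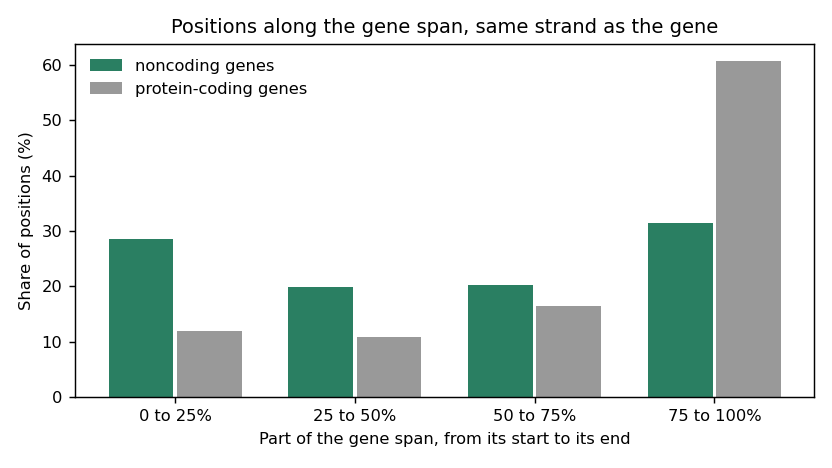
Share of distinct m6A positions on their gene's strand (y axis, percent) in each of 4 equal parts of the gene span, counted from the annotated start (x axis), for 1200 noncoding and 59629 protein-coding positions. The last part holds 31.5% of noncoding and 60.8% of coding positions.

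Strand also set a bound on how many sites belong to the gene that holds them. Among sites whose gene had a known strand, 90.6%, 90.8% and 92.9% in KO replicates 1 and 2 and WT were on that strand, against 98.6%, 98.7% and 98.8% of coding sites. The opposite-strand sites numbered 49, 49 and 42. Of the 92 shared positions 67 were on the gene's strand, 6 on the other and 19 in genes without a strand in the table. All 6 DNAJC9-AS1 positions and all 9 SNRPA1-DT positions were on the opposite strand and within 5000 nt past the end of a coding gene on their own strand. Both genes were picked out after their values were seen. Of all 1638 positions, 67 (4.09%) lay within that distance past a coding gene on the same strand, with 1 of the 92 shared ones among them.

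The start of a noncoding RNA can carry m6Am, the mark that PCIF1 makes, and the authors' strict m6Am list allowed a look at the same genes. It had a region within 50 nt of the start of 12 of the 444 member genes with a strand, with no coding gene starting there, and 9 of the 12 regions covered the annotated start. Among all noncoding genes, for which the reference has 12569 start windows, 17 had such a region, with the 12 members among them. The start base was A in 7 of the 12 genes and in 6 of the 9. The 3 genes whose starts are printed here had a region over the start, an A at the start base and m6A sites in each library, and the capital marks the start base.
NORAD, chr20:36050930-36050990, minus strand: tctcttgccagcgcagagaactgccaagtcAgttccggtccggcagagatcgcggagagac
CHASERR, chr15:92882813-92882873, plus strand: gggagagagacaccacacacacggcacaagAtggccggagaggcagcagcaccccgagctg
PSMA3-AS1, chr14:58298107-58298167, minus strand: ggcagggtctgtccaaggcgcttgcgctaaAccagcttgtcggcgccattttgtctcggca

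The deposited score of the region was 2.98 at NORAD, 2.96 at CHASERR and 3.17 at PSMA3-AS1. PSMA3-AS1, antisense to a proteasome subunit gene, had 1 m6A site in each of KO replicate 1, KO replicate 2 and WT, and CHASERR had 2, 2 and 4. FGD5-AS1 had a region with a score of 2.58 near its start that did not cover it. In the reference as a whole 34.7% of 12569 noncoding start windows had A at the start base, as did 50.2% of coding ones.

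Input RNA levels of these genes are not given. The input table lists 58381 Ensembl identifiers with totals of 4511687 to 5960674 counts over 5 libraries, and none of the 565 genes could be paired with an identifier through the names and accessions used here. How far the number of sites in a gene follows its RNA level was therefore not tested, and less methylation and less RNA cannot be told apart where a gene has fewer sites.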

How the data were processed

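Polyadenylated RNA of PCIF1 KO (2 libraries) and WT (1 library) HEK293T cells was profiled by miCLIP. The authors deposited 1 list of DRACH positions per library (40768, 47644 and 43663 sites in KO replicates 1 and 2 and WT), with a count of reads and of substituted reads at each, per the file headers and values. The file names carry a false discovery rate mark, and the caller is not given in the sources used here. BWA 0.7.17, STAR, bedtools and deepTools are named by the submitters' processing notes, without roles. The deposited strict m6Am list gives a score per region, whose basis is not stated. The deposited input table holds raw counts per Ensembl gene. The deposited SLAM-seq table gives a KO over WT ratio per gene, and the authors' translational efficiency table gives a log2 fold change. None of the genes described here could be matched to those tables by symbol or accession, so they give no value here. In all, 0 columns were left unmapped.

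Sites were placed by gene span in the RefSeq table of GRCh38.p14, and strands came from RefSeq's promoter table. Chromosomes X and Y were not used here, and sites in several overlapping genes were left out. Shares carry exact Clopper-Pearson 95% intervals. Noncoding and coding sites were compared over 3 libraries with a two-sided exact sign-flip permutation test. Python 3.11.15, pandas 2.3.3, numpy 2.4.6, scipy 1.17.1 and matplotlib 3.10.9 were used, and the scripts were tested on simulated lists. The planned test of input RNA with edgeR was not made, because no gene described here could be paired with a row. Genes named are the 20 with the most sites over the 3 lists (ties by substituted reads, then by alphabet), the leading gene of each fixed gene list, and the 10 sites with the most substituted reads. HK2-DT and PSMA3-AS1 were named outside this rule, after their values were seen, for their sequences, and so were a few genes marked in the text. The members and gene lists were chosen with earlier results of these data known. Alternatives were a stricter minimum of reads or substituted reads, same-strand placement, looser placement, a tolerance in position, medians in place of sums, and leaving out the 2 genes with the most sites.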

Additional observations from a re-analysis of the deposited data

Results flagged for a closer look

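MALAT1, an abundant nuclear lncRNA, had m6A sites that the counts above leave out, because its span overlaps that of TALAM1, an antisense RNA gene, and a site in 2 genes was not placed. It had 19 sites in KO replicate 1, 14 in KO replicate 2 and 13 in WT, all on the plus strand, at 29 positions of which 5 were in all 3 lists. The substituted share summed over them was 140 of 2953 reads (4.74%, interval 4.00 to 5.57%) in KO replicate 1, 63 of 1213 (5.19%, 4.01 to 6.60%) in KO replicate 2 and 70 of 1330 (5.26%, 4.13 to 6.60%) in WT. The 3 intervals overlapped, but each sum runs over the sites of its own list.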

How the results depend on the processing

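Of 48 values under an alternative, 27 stayed near the main one (a count within 1.5 times of it, a share within its 95% interval) and 21 moved. With at least 5 substituted reads the noncoding sites were 97, 112 and 106 in KO replicates 1 and 2 and WT, and with at least 20 reads 255, 250 and 286. Agreement moved to 60.8% for KO replicate 1 in KO replicate 2, 60.4% for WT in KO replicate 1 and 56.6% for WT in KO replicate 2 with at least 5 substituted reads, and to 48.2%, 43.4% and 40.9% with at least 20 reads. The substituted share at shared positions was 10%, 11.1% and 10.1% in KO replicates 1 and 2 and WT as a median, 8.53%, 9.88% and 10.1% without LINC00205 and FGD5-AS1 (84 positions), 6.89% in KO replicate 1 with at least 20 reads in each list (70 positions), and 7.37%, 7.58% and 7.90% in KO replicates 1 and 2 and WT when the gene had to be on the site's strand (95 positions). Same-strand placement gave 662, 673 and 760 sites, keeping sites in overlapping noncoding genes gave 762, 762 and 841, and an alternative added after seeing the data, which left out opposite-strand sites, gave 605, 598 and 702. The same-strand sites are in part other sites than the main ones, so a similar count does not mean the same sites. No paired analysis was possible because there is 1 WT miCLIP library and the results come from no test over pairs. The alternatives to the input RNA test (DESeq2, other factors, no filter, the replicate block, leaving out each library) were not run, as no row could be paired with a gene. Sites have few reads, which widens the intervals of their shares.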
